A study of Homo sapiens with 54 samples.

Results

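RNA held by Argonaute in H4 cells given miR-107 was compared with RNA held by Argonaute in H4 cells given a negative control RNA. The 6 arrays were taken by their labels, 3 named miR-107 IP and 3 named control IP, out of 54 arrays in the series. H4 is an established human brain tumour line that the labels describe as glioneuronal. The cells received 1 of 9 small RNAs as mimics and were collected 48 h later. RNA was then taken either from an immunoprecipitate (IP) made with the monoclonal anti-Argonaute antibody 2A8 or from the total lysate, and each was hybridised to Affymetrix Human Gene 1.0 ST arrays. The groups used were IPs of cells given miR-107, miR-103, miR-16, miR-195, 2 altered forms of miR-107 (miR-107-mut1, then miR-107-mut2), miR-320, miR-15b* and the negative control RNA from Ambion, with the lysates of miR-107 cells and control cells. The lysates of the other small RNAs entered the fits only through the estimate of the spread. Every group had 3 biological replicates. The design text calls both altered forms and the control non-physiological, and every group is a transfected culture of 1 line. Whether the transfected molecules had exactly the sequences given next is not stated.

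Argonaute proteins hold a mature microRNA and find messages by pairing with it, mostly through bases 2 to 8 from its 5′ end, the seed. Messages that carry a matching site are then bound, less translated and often shortened at the tail and degraded. Immunoprecipitation of Argonaute recovers the messages it holds at that moment. miR-107 is encoded in an intron of PANK1, a gene of coenzyme A synthesis, and belongs to a group of microRNAs that share the bases AGCAGC near the 5′ end. It is known in brain for its fall early in Alzheimer disease and for targeting BACE1 and GRN.

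The mature sequences of 5 of the transfected microRNAs are shown because the comparisons turn on the seed, given in capitals, and that of miR-320 is not given here. They are RefSeq entries on GRCh38.p14, written 5′ to 3′. The hairpin of miR-107 lies at chr10:89592747-89592827 on the minus strand, within PANK1.
hsa-miR-107: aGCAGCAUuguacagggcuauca
hsa-miR-103a-3p: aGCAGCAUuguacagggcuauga
hsa-miR-16-5p: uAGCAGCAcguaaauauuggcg
hsa-miR-195-5p: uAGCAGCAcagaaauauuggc
hsa-miR-15b-3p: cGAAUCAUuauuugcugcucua
miR-107 and miR-103 share the seed GCAGCAU and differ by C22G, counted from the 5′ end of miR-107. miR-16 and miR-195 share the seed AGCAGCA, which holds most of the same bases 1 position further from the 5′ end. The sequence given for miR-15b*, the name in the design text where the labels write miR-15b, is the 3p arm, whose seed is GAAUCAU. Sequences of the altered forms and of the control RNA were not given, and sites in messages were not analysed here.

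The arrays were of even scale within each fraction but not between fractions. Mean log2 intensity was 3.61 to 3.65 over the 27 IP arrays and 7.11 to 7.17 over the 27 lysate arrays, so levels are compared only within a fraction. The spread of values within an array (SD over genes) averaged 1.64 ± 0.07 in the miR-107 IP and 1.90 ± 0.08 in the control IP (SD, n = 3 each). The miR-107 IP arrays correlated with each other at 0.922 to 0.948, and the control IP arrays at 0.952 to 0.967. The 341 olfactory receptor genes, which stand in for a floor, averaged 2.41 ± 0.12 in the miR-107 IP and 2.12 ± 0.10 in the control IP. The spread was narrower and the floor higher in the miR-107 IP, and their part in the results was not tested. One IP array of the series stood apart, miR-15b* IP replicate 1, with a mean correlation to the other IP arrays of 0.805 against a limit of 0.873, set by the median absolute deviation over IP arrays. By the same rule 3 lysate arrays stood apart, against a limit of 0.94. They were replicate 2 of the miR-103 lysate (0.9296), the miR-15b* lysate (0.8729) and the miR-16 lysate (0.8945), which share the estimate of the spread in the lysate and interaction fits. In the lysates VIM, a marker of astrocytes and mesenchymal cells, was at 12.75 ± 0.08 with miR-107 and 12.54 ± 0.04 with control, and UCHL1, a neuronal marker, at 12.97 ± 0.03 and 12.95 ± 0.04. Some other markers read higher with miR-107 in the lysates. ENO2, the neuronal enolase, was at 9.999 ± 0.129 with miR-107 and 9.004 ± 0.203 with control (lysate change 0.99, adjusted p = 0.00012), and PECAM1, an endothelial adhesion molecule, at 6.474 ± 0.0756 with miR-107 and 5.995 ± 0.155 with control. Of 15 endothelial and fibroblast markers with a probe set 8 were tested, and 0 of the 8 were called in the lysate. Whether PECAM1 was among the 8 or was left out by the filter on low values is not given here. PTPRC, which marks blood cells, was at 3.59 ± 0.02 in both.

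With miR-107 a short set of messages rose in the Argonaute IP, led by GRN, which encodes the secreted lysosomal protein progranulin, and by IER3IP1, a small membrane protein of the endoplasmic reticulum. GRN was 15.5-fold and IER3IP1 10.3-fold higher than in the control IP. A much longer set fell, led by APOBEC3B, a cytidine deaminase, KPNA2, an importin that carries proteins into the nucleus, and MRGBP, a subunit of a histone acetyltransferase complex. Of 11050 genes tested, 24 were called higher (0.217%) and 399 lower (3.61%) at an adjusted p under 0.05 in limma with Benjamini-Hochberg adjustment. Falls made up nearly all of the calls, since 5.67% of them were rises. Among called genes 12 rose and 354 fell by more than 2-fold, and 2 rose and 83 fell by more than 4-fold. The miR-107 IP and control IP values did not overlap for 24 of the 24 rises and 398 of the 399 falls. Over all genes tested, 7.38% lay wholly above the control IP arrays and 26% wholly below. At an unadjusted p under 0.05 there were 2570 genes. Each group had 3 arrays, which limits the precision. With 1 of the 6 left out, 92 to 340 genes were called, the fewest without control IP replicate 3 (92), miR-107 IP replicate 2 (119), control IP replicate 1 (242) and miR-107 IP replicate 3 (267). Without the miR-15b* IP array that stood apart, which shares the estimate of the spread, 70 genes rose and 919 fell.

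GRN stood at 11.78, 11.72 and 11.24 on the log2 scale in the miR-107 IP arrays, against 7.46, 7.58 and 7.85 in the control IP arrays. Every miR-107 IP array was more than 3 log2 units above every control IP array. The difference was 3.95 ± 0.48 (SE, adjusted p = 6.1e-05). IER3IP1 had 8.56, 9.31 and 9.97 in the miR-107 IP, against 6.06, 5.09 and 6.61 in the control IP. The groups were clearly apart although each was spread over more than 1 unit, and the difference was 3.36 ± 0.39 (adjusted p = 3.3e-05). A second probe set of IER3IP1, of lower signal, also read higher, by 1.36.

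BOLA3, a factor of mitochondrial iron-sulfur cluster assembly, had 7.98, 8.13 and 7.42 in the miR-107 IP and 6.14, 6.03 and 6.08 in the control IP. Its control arrays lay within a narrow band below all 3 miR-107 arrays, a difference of 1.76 ± 0.23 (adjusted p = 0.00011). SLC29A3, the nucleoside transporter of lysosomes, had 8.38, 7.59 and 7.47 in the miR-107 IP against 6.53, 5.65 and 6.25 in the control IP (1.67 ± 0.37, adjusted p = 0.013). NINJ1, a membrane protein needed for plasma membrane rupture in dying cells, had 9.89, 9.31 and 9.53 in the miR-107 IP against 8.41, 7.79 and 8.33 in the control IP (1.40 ± 0.37, adjusted p = 0.033). For SLC29A3 and NINJ1 the gap was less than 1 unit between the lowest miR-107 array and the highest control array. GOT2, the mitochondrial aspartate aminotransferase, was even within the miR-107 IP at 8.17, 8.06 and 8.26, against 6.39, 6.78 and 7.26 in the control IP (1.35 ± 0.30, adjusted p = 0.013).

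SLC5A3, the myo-inositol transporter, was at 5.80, 5.96 and 5.96 in the miR-107 IP and 4.22, 4.16 and 4.63 in the control IP, a difference of 1.57 ± 0.40 (adjusted p = 0.028). ITGA2, the integrin subunit that binds collagen, read 5.54, 4.26 and 4.20 in the miR-107 IP and 3.36, 3.55 and 3.01 in the control IP, so its rise of 1.36 ± 0.27 (adjusted p = 0.0053) was carried most by miR-107 IP replicate 1. With any 1 of the 6 arrays left out, GRN, IER3IP1 and BOLA3 passed the test each time, and SLC5A3, NINJ1, CES1 and AP5Z1 missed it each time. GOT2 missed it without control IP replicate 1, ITGA2 without control IP replicate 3, and SLC29A3 without miR-107 IP replicate 1, control IP replicate 2 or control IP replicate 3. KRTAP5-4 and CSRP2 each missed it without control IP replicate 1 or control IP replicate 3, KRTAP5-4 also without miR-107 IP replicate 1 or 3, and CSRP2 also without miR-107 IP replicate 2. ITGA2 was at 0.19 (adjusted p = 0.59) against the mean of the control, miR-320 and miR-15b* IPs. The other named rises, CES1, KRTAP5-4, CSRP2 and AP5Z1, ran between 1.03 and 1.18 with adjusted p between 0.025 and 0.048. The 12 smaller rises were CFAP74, LINC03009, TIMM29, VSIG2, FXYD1, LCP2, KTN1-AS1, LRFN1, ARMC5, ANKRD37, APLN and NGEF, at 1.52- to 1.93-fold. Some lay near the olfactory receptor floor, whose 90th percentile was 3.24 to 3.49 on the miR-107 IP arrays and 2.95 to 3.07 on the control IP arrays. Control IP means were 3.08 for KTN1-AS1, below that floor in 1 of 3 control IP arrays, 3.26 for LCP2, 3.53 for ANKRD37 and 3.64 for APLN. The size of these 4 rises is poorly measured. APLN is the peptide ligand apelin, and LCP2 an adaptor of immune receptor signalling.

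**Figure D1:**
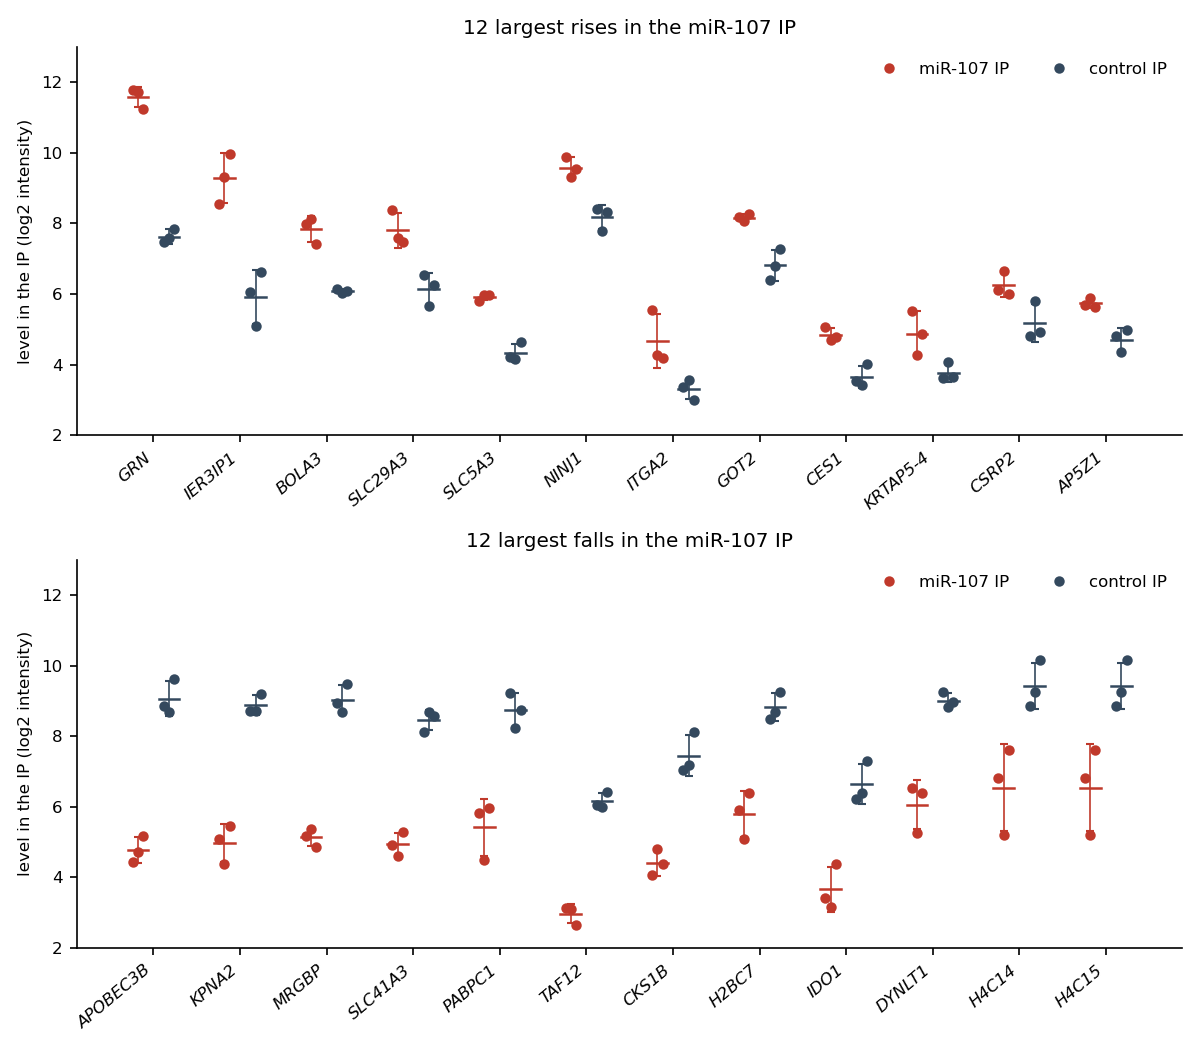
Level of the 12 largest rises (top) and the 12 largest falls (bottom) in each Argonaute IP array, in log2 intensity, with miR-107 IP left and control IP right for each gene. Points are arrays, horizontal lines means and bars SD (n = 3); no gene shown has overlapping groups, and GRN and IER3IP1 are farthest apart among the rises at 3.95 and 3.36.

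APOBEC3B had the largest fall, with 4.42, 4.73 and 5.17 in the miR-107 IP and 8.86, 8.69 and 9.62 in the control IP. The difference was -4.28 ± 0.64 (19.5-fold lower, adjusted p = 0.00043). KPNA2 had 5.08, 4.38 and 5.44 in the miR-107 IP and 8.72, 8.72 and 9.20 in the control IP (-3.91 ± 0.58, adjusted p = 0.00041). Its other probe set fell by 3.72, and both genes belong to families with close relatives, whose signal short probes may share.

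MRGBP had 5.16, 5.37 and 4.86 in the miR-107 IP, against 8.94, 8.67 and 9.48 in the control IP (-3.90 ± 0.41, adjusted p = 8.7e-06). SLC41A3, a member of a magnesium transporter family, had 4.93, 4.60 and 5.27 in the miR-107 IP against 8.12, 8.67 and 8.58 in the control IP (-3.53 ± 0.35, adjusted p = 4.8e-06). TAF12, a subunit of the general transcription factor TFIID, had 3.14, 3.11 and 2.65 in the miR-107 IP against 6.04, 5.99 and 6.42 in the control IP (-3.19 ± 0.21, adjusted p = 3.1e-09). The arrays of each group lay close together for these 3 genes, and TAF12 had the smallest adjusted p of the named falls. All 3 miR-107 IP values of TAF12 lay below the 90th percentile of the olfactory receptor genes on the same arrays (3.24 to 3.49), so the size of its fall is only bounded there. With that floor in place of its miR-107 IP values it was at least 6.99-fold lower than in the control IP.

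PABPC1, the main cytoplasmic poly(A)-binding protein, had 5.81, 4.49 and 5.96 in the miR-107 IP and 9.23, 8.24 and 8.75 in the control IP (-3.32 ± 0.43, adjusted p = 0.00011). IDO1, which starts tryptophan breakdown, had 3.42, 3.15 and 4.38 in the miR-107 IP and 6.23, 6.39 and 7.30 in the control IP (-2.99 ± 0.42, adjusted p = 0.00029). DYNLT1, a dynein light chain, had 6.52, 5.25 and 6.39 in the miR-107 IP and 9.24, 8.81 and 8.97 in the control IP (-2.95 ± 0.40, adjusted p = 0.00017). For PABPC1 and DYNLT1 the lowest of the 6 arrays was miR-107 IP replicate 2. CKS1B, a subunit that binds cyclin-dependent kinases, had 4.06, 4.80 and 4.38 in the miR-107 IP and 7.05, 7.17 and 8.11 in the control IP (-3.03 ± 0.57, adjusted p = 0.0041). Its 3 probe sets disagreed, with changes of -3.03, -2.90 and -0.41, the last at an unadjusted p of 0.28. The histone genes H2BC7 (-3.02), H4C14 and H4C15 (-2.88 each) completed the list. H4C14 and H4C15 had identical values and count as 1 measurement, and the histone copies of a class cannot be told apart with confidence on this array. H4C14 and H4C15 missed the call without miR-107 IP replicate 2 or without control IP replicate 3, and the other 10 falls passed under each alternative run.

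The balance of rises and falls moved with the scaling of the arrays. The median change over all genes tested was -0.185 on the deposited values, -0.108 after cyclic loess within the IP arrays, -0.0918 with each array scaled to equal variance, and 0.0066 with each array centred on its median. The number of rises and falls was 24 and 399 on the deposited values (5.67% rises), 103 and 427 after loess (19.4%), 96 and 356 with equal variance (21.2%), and 85 and 456 with median centring (15.7%). Of the 24 rises 23 were called after loess, all but KTN1-AS1, and 311 of the 399 falls were. On the deposited values the median change in 5 equal groups of genes, ordered by mean IP level from low to high, was -0.0566, -0.0754, -0.118, -0.275 and -0.649. After loess the same 5 groups had -0.189, -0.0916, -0.0197, -0.0428 and -0.123. Of the 399 falls on the deposited values 210 were in the group of highest level, as were 7 of the 24 rises.

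After loess GRN was higher by 4.72 ± 0.26 (adjusted p = 1.5e-11), IER3IP1 by 3.84 ± 0.31, BOLA3 by 2.25 ± 0.24, SLC29A3 by 2.14 ± 0.25 and NINJ1 by 2.12 ± 0.20. Of the 103 rises, 80 were called after loess alone, and 65 of the 103 were in the group of highest level. The largest of the 80, chosen after their values were seen, were PLAU, the plasminogen activator urokinase (1.96, adjusted p = 0.0014, against 1.39 and adjusted p = 0.11 on the deposited values), LDOC1 (1.96, adjusted p = 6e-04) and KRTAP1-4 (1.91, adjusted p = 0.0018). LDOC1 read 8.40, 8.38 and 8.81 in the miR-107 IP and 7.35, 6.69 and 7.56 in the control IP on the deposited scale, with no overlap. POLR2L, a subunit shared by the RNA polymerases, was higher by 1.81 after loess (adjusted p = 0.00017) with 9.86, 9.70 and 10.29 in the miR-107 IP and 8.75, 8.64 and 9.29 in the control IP. On the deposited lysate values PLAU rose too, by 1.98 (adjusted p = 1.3e-07 in limma), while POLR2L was at -0.55 (adjusted p = 0.0026). LDOC1 was at -0.33 (adjusted p = 0.098) and KRTAP1-4 at -0.013 (adjusted p = 0.99) in the lysate. Among the falls APOBEC3B was at -3.83, MRGBP at -3.48, KPNA2 at -3.44, TAF12 at -3.23 and SLC41A3 at -3.20 after loess.

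**Figure D2:**
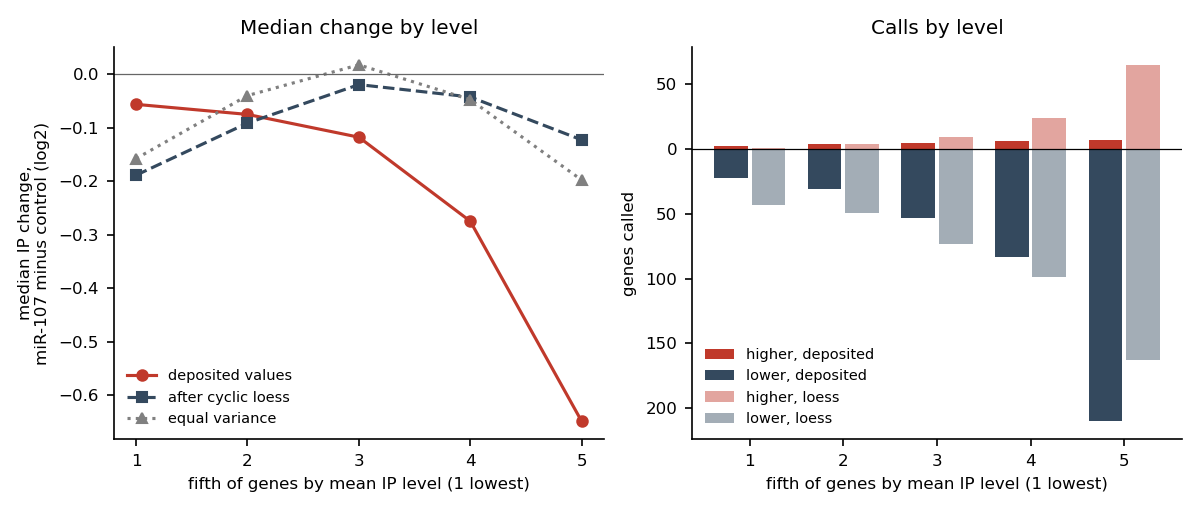
Left, median log2 change of miR-107 IP minus control IP in 5 equal groups of the 11050 genes by mean IP level, for the deposited values, after cyclic loess and with equal variance per array. Right, genes called higher (above 0) and lower (below 0) in each group; on the deposited values the median reaches -0.649 in the highest group, where 210 falls lie, and after loess it is -0.123 with 65 rises and 163 falls.

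The same messages were read in the IPs of the other small RNAs. GRN averaged 11.85 ± 0.55 with miR-103 and 11.58 ± 0.29 with miR-107, then 10.57 ± 0.48 with miR-107-mut2, 10.11 ± 0.34 with miR-16 and 9.54 ± 0.50 with miR-195 (SD, n = 3 each). It averaged 7.60 ± 0.66 with miR-107-mut1, 7.19 ± 0.17 with miR-320, 6.21 ± 1.46 with miR-15b* and 7.63 ± 0.20 with control. So 5 of the 8 groups other than control, miR-107 among them, lay wholly above the control IP arrays, and the step between miR-195 and control was wider than the spread in either. IER3IP1 was at 9.73 ± 0.38 with miR-103 and 9.28 ± 0.71 with miR-107, and between 4.89 and 5.92 in the other 7 groups. BOLA3 was at 7.71 ± 0.53 and 7.84 ± 0.37 in the same pair, and between 5.67 and 6.26 elsewhere. SLC29A3 and GOT2 were likewise highest with miR-103 (8.10 and 8.62) and miR-107 (7.81 and 8.17). NINJ1 was high with miR-103 (9.77 ± 0.18), miR-107 (9.58 ± 0.29) and also miR-320 (9.40 ± 0.28). ITGA2 lay wholly above the control arrays in all 8 groups, up to 6.35 with miR-320, so the control IP was lowest.

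For several of the largest falls the control IP was high and all other IPs were low. MRGBP averaged between 5.13 (miR-107) and 6.25 in the 8 transfections other than control, against 9.03 ± 0.41 in the control IP. SLC41A3 was at 4.81 to 5.78 in those 8, against 8.46 ± 0.30 in the control IP, and TAF12 at 2.96 to 3.72, against 6.15 ± 0.23. All 8 groups lay wholly below the control arrays for these 3 genes and for APOBEC3B, IDO1 and NPTN. APOBEC3B was graded among them, at 4.14 ± 0.44 with miR-103, 4.78 ± 0.38 with miR-107, 5.62 ± 0.94 with miR-107-mut2 and 7.60 ± 0.83 with miR-107-mut1. KPNA2 had 4.97 ± 0.54 with miR-107 and 8.49 ± 0.80 with miR-320, the one group that overlapped the control IP at 8.88 ± 0.27. DYNLT1 was lowest with miR-107 (6.06 ± 0.70) and miR-103 (6.43 ± 0.50), and between 7.63 and 8.78 in the 6 other transfections.

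**Figure D3:**
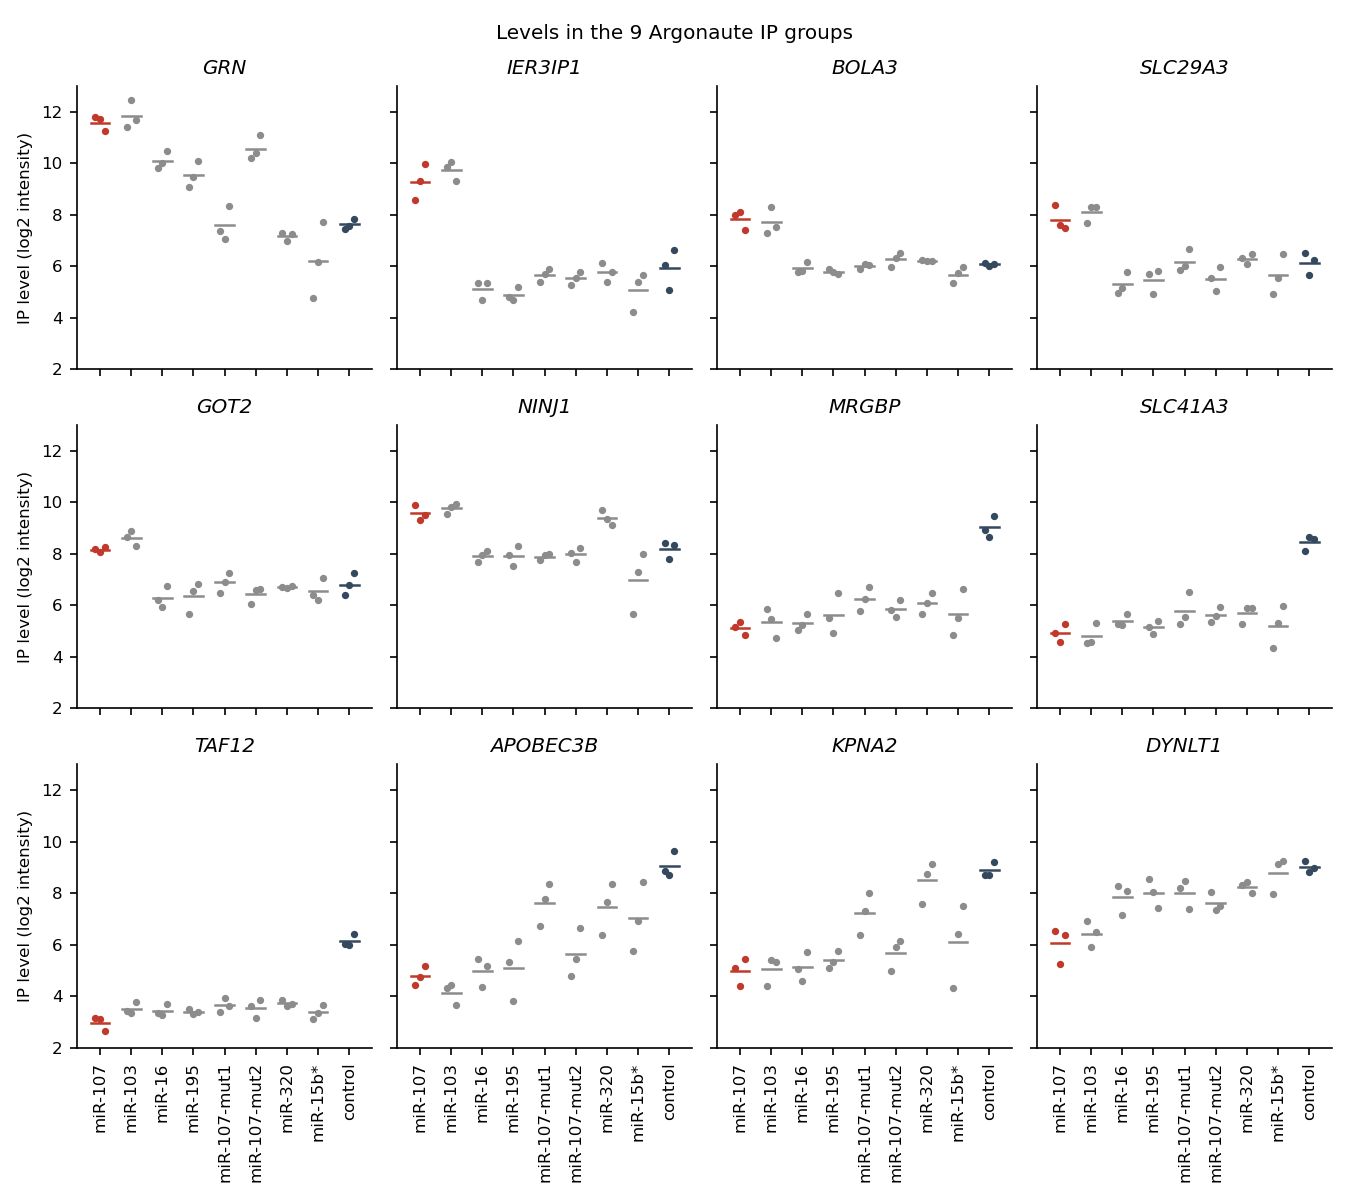
Level in log2 intensity of 6 rises and 6 falls in the 9 Argonaute IP groups, miR-107 at the left of each panel in red and control at the right in dark blue. Points are arrays and lines means (n = 3); IER3IP1 and BOLA3 are high with miR-107 and miR-103 and near the control level in the rest, while MRGBP, SLC41A3 and TAF12 are high in the control IP.

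Against the mean of miR-320 IP and miR-15b* IP, which the design text sets outside the miR-107 group, 100 genes were higher (0.905%) and 510 lower (4.62%). These comparisons share the miR-107 IP arrays with the one against control, so each has its own values given side by side. GRN was higher by 4.88 ± 0.41 (adjusted p = 2.3e-07), IER3IP1 by 3.85 ± 0.33 and BOLA3 by 1.90 ± 0.20. LSM2, part of the ring that binds message tails for decapping (-4.63), CLDN12, a claudin (-3.70), and NRN1, neuritin (-3.51), were the largest falls, and their means were highest with miR-320, at 11.05, 9.60 and 9.94. MRGBP, by contrast, was at -0.74 with an adjusted p of 0.22, SLC41A3 at -0.52 with 0.32 and TAF12 at -0.58 with 0.065. Without the array that stood apart, miR-15b* IP replicate 1, 196 genes were higher and 1500 lower, and with only the 9 arrays compared 4 were higher and 28 lower.

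Against miR-107-mut1, 21 genes were higher (0.19%) and 537 lower (4.86%). The rises were led by GRN (3.98 ± 0.48, adjusted p = 1.4e-05), IER3IP1 (3.62 ± 0.39) and BOLA3 (1.84 ± 0.23). RAB11A, a GTPase of recycling endosomes (-5.88), the transcription factor JUNB (-4.24) and SLC29A1, the nucleoside transporter of the plasma membrane (-4.13), were the largest falls. All 3 had their highest mean with miR-107-mut1, at 11.34, 11.18 and 9.60.

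Against miR-107-mut2, 4 genes were called (0.0362%), all higher with miR-107: IER3IP1 (3.75 ± 0.39, adjusted p = 1.9e-05), SLC29A3 (2.30 ± 0.37, adjusted p = 0.0085), GOT2 (1.73 ± 0.30, adjusted p = 0.022) and BOLA3, at 1.58. In this comparison GOT2 missed the call in 7 of its 16 alternatives (adjusted p up to 0.35), among them with any array but miR-107-mut2 IP replicate 3 left out. SLC29A3 missed it in 4 of 16 (adjusted p up to 0.12), with only the arrays compared or without miR-107 IP replicate 1, miR-107-mut2 IP replicate 1 or miR-107-mut2 IP replicate 2, and IER3IP1 in none. BOLA3 missed it with only the arrays compared and without miR-107-mut2 IP replicate 1, where IER3IP1 was the 1 gene called. GRN was not among the 4 genes called, at 1.01 ± 0.48 (95% interval 0.02 to 2.00, adjusted p = 0.55). Against miR-103 no gene was called (0%) by limma, 364 had an unadjusted p under 0.05 (3.29%), and the count was 0 under every alternative run for it. That does not show that miR-107 and miR-103 act alike. The 95% interval of the difference was -1.25 to 0.72 for GRN, -1.24 to 0.35 for IER3IP1, -0.35 to 0.60 for BOLA3 and -1.07 to 0.63 for MRGBP, each of which leaves out the size of its difference from control.

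In the total RNA of the same transfections, 719 genes were higher (6.51%) and 923 lower (8.35%) with miR-107 than with control, at a median change of 0.0079. In a bulk lysate, fewer cells with a message and less of it per cell cannot be told apart. GRN was lower in the lysate, with 11.73, 11.35 and 11.29 for miR-107 and 12.40, 12.11 and 12.16 for control (-0.77 ± 0.18, adjusted p = 0.0045). BOLA3 (-0.53 ± 0.14, adjusted p = 0.011) and NINJ1 (-0.76 ± 0.15, adjusted p = 0.00074) also fell in the lysate. These were the 3 of the 24 IP rises that fell in total RNA, 12.5% of the IP rises and 0.325% of the lysate falls. The remaining IP rises were ITGA2 and LCP2, which rose in the lysate too (2.30 and 1.61), and 19 not called there, among them IER3IP1 at -0.12 (adjusted p = 0.80).

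Of the 399 IP falls, 124 also fell in the lysate, which is 31.1% of the IP falls and 13.4% of the lysate falls. Another 14 rose in the lysate and 261 were not called there. The 14 included MRGBP (0.50 ± 0.09, adjusted p = 0.00041), NPTN, a neuronal adhesion molecule, and TNRC6A. APOBEC3B (-1.98) and CKS1B (-1.27) fell in both fractions, while SLC41A3 and PABPC1 were not called in the lysate, at -0.29 and -0.23.

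The IP change was tested against the lysate change as an interaction over all 54 arrays. It was higher for 115 genes (1.04%) and lower for 446 (4.04%). GRN led with 4.72 ± 0.53 (adjusted p = 6.5e-08), then IER3IP1 with 3.49 ± 0.44 (adjusted p = 9.5e-07) and GUCD1 with 2.65. GUCD1 had 6.85, 6.81 and 7.20 in the miR-107 IP and 5.43, 5.26 and 5.57 in the control IP, which missed the call on its own at 1.53 (adjusted p = 0.056), and fell by 1.12 in the lysate. RFC3, a subunit of the clamp loader of DNA replication (2.41), and CDH7, a cadherin (2.35), came next. They fell in the lysate by 2.12 and 2.33, and their IP changes were 0.29 and 0.02, neither called. RFC3 was at 3.18 ± 0.35 in the miR-107 IP and 2.88 ± 0.16 in the control IP, and CDH7 at 3.44 ± 0.26 and 3.42 ± 0.34. Both lay near the olfactory receptor floor in both IPs, where a fall could hardly be measured, so their interaction reflects the lysate fall. The lowest were MRGBP (-4.40), NPTN (-3.71), IDO1 (-3.43), KPNA2 (-3.40) and TAF12 (-3.40). All of BOLA3, GRN and NINJ1 passed this test, at 2.28, 4.72 and 2.16, whereas the falls of APOBEC3B (-2.31, adjusted p = 0.063) and CKS1B (-1.76, adjusted p = 0.085) did not. Of the 124 genes that fell in both fractions, 13 passed it as a deeper fall in the IP.

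**Figure D4:**
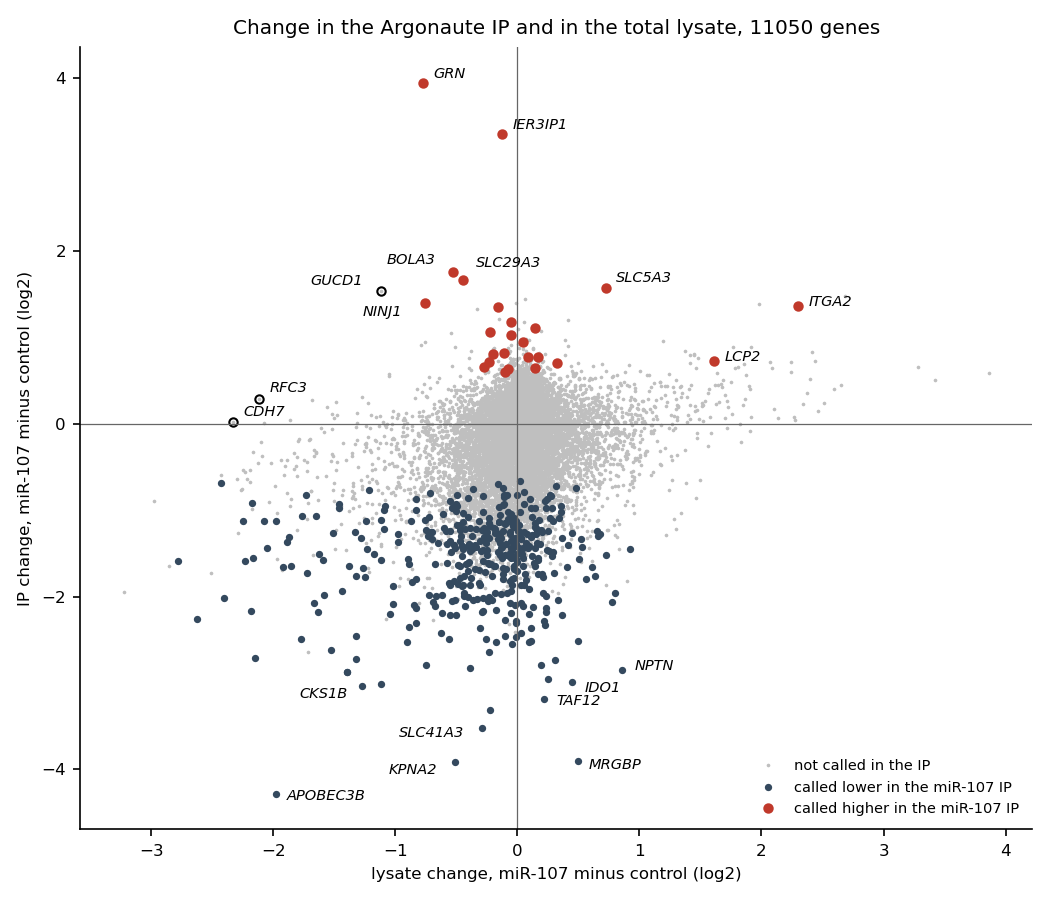
Change of each of the 11050 genes in the lysate (horizontal) and in the Argonaute IP (vertical), as log2 of miR-107 minus control. Red marks 24 genes called higher and dark blue 399 called lower in the IP, and open circles mark 3 named genes not called there; GRN has an IP change of 3.95 against a lysate change of -0.77, and APOBEC3B is low on both axes.

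Gene lists are read against all genes tested, of which 0.217% rose and 3.61% fell in the IP and 6.51% rose and 8.35% fell in the lysate. Of 22 published targets of miR-103 and miR-107 tested in the IP, 1 was higher, GRN, and none was lower, at a list median of -0.197 against -0.185 for all genes. DICER1, which cuts microRNA precursors, had 2.91, 3.46 and 3.55 in the miR-107 IP and 3.46, 3.90 and 4.55 in the control IP (-0.66, adjusted p = 0.13). BACE1, the beta-secretase of amyloid production, had 5.52, 5.25 and 5.72 in the miR-107 IP and 5.94, 6.10 and 6.93 in the control IP (-0.83, adjusted p = 0.18), and CDK6 was at -0.65 (adjusted p = 0.14). DICER1 and CDK6 each lay below the olfactory receptor floor in 2 of 3 miR-107 IP arrays, so the size of their changes is poorly measured. In the lysate 2 of the 22 rose and 7 fell (median -0.327), with CDK6 at -1.28 and BACE1 at -0.83, both called. Of 19 genes published as targeted by miR-16 and its relatives, CCNE1, a G1 cyclin, fell in the IP (-1.08, adjusted p = 0.046), which is 5.26% of the list, and none rose. CCNE1 missed the call with any array but control IP replicate 2 left out.

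Of 18 genes for Argonautes, TNRC6 proteins and microRNA processing, TNRC6C and TNRC6A, scaffolds that recruit deadenylases to Argonaute, fell by 1.31 and 1.45 (11.1% lower). Falls were also 399 of the 423 calls over all genes. TNRC6C and TNRC6A missed the call without miR-107 IP replicate 2 or control IP replicate 3, and TNRC6A also without miR-107 IP replicate 1 or control IP replicate 1. TNRC6A rose by 0.93 in the lysate, a difference between fractions of -2.37 (adjusted p = 0.0016). Of 33 genes of deadenylation, decapping and decay, 7 fell (21.2%, against 3.61% of all genes) and none rose (median -0.636), with PABPC1, DCP1B (-1.39), LSM3 (-2.31) and PATL1 (-1.71) at the head. LSM3 lay below the olfactory receptor floor in all 3 miR-107 IP arrays and was at least 2.97-fold lower against it. Of 16 regulators that bind AU-rich and related elements, 4 fell (25%): ZFP36 (-2.79), ZFP36L1 (-1.99), HNRNPD (-1.35) and ELAVL1 (-1.11). ZFP36, the decay factor tristetraprolin, had 7.56, 6.02 and 7.67 in the miR-107 IP and 9.80, 9.83 and 9.98 in the control IP, and was at 0.19 in the lysate (adjusted p = 0.73). ELAVL1, which stabilises such messages, was not called after loess (-0.80, adjusted p = 0.067), and ELAVL1 and HNRNPD each missed the call in 5 of 19 alternatives.

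Cell cycle genes had no rise in the IP. Of 28 DNA replication genes 8 fell in the IP (28.6%, against 3.61% of all genes, median -0.742) and 28 fell in the lysate (median -1.56), and the interaction called 8 higher and none lower. The list averaged 3.68 in the miR-107 IP, near the olfactory receptor floor (90th percentile 3.24 to 3.49 on those arrays). GINS1 lay below that floor in all 3 miR-107 IP arrays and RFC3 in 2 of 3, where a deeper fall could hardly be measured. The interaction in this list is therefore not read as a gain in the IP. GINS2, of the replicative helicase, was at -2.02 for the IP change and -2.40 for the lysate change, and TYMS, thymidylate synthase, at -1.98 and -1.59. Of 17 mitosis genes 5 fell in the IP (29.4%, median -0.948) and 17 in the lysate (median -1.87), among them FOXM1 (-2.71 and -2.15) and PLK1 (-2.26 and -2.62). The interaction called 6 mitosis genes higher and none lower (median 0.918). This list averaged 3.81 in the miR-107 IP, and CCNB2 lay below the floor in 2 of 3 miR-107 IP arrays. Its interaction is likewise not read as a gain in the IP. Of 39 replication-dependent histone genes 18 fell in the IP (46.2%, median -1.38) and 35 in the lysate (median -1.23). Of 19 genes of the G1 to S step, 5 fell in the IP (26.3%, median -1.04) and 7 fell and 2 rose in the lysate. Of those 5, CDKN1B missed the call in 3 of 19 alternatives, E2F1 in 4, CDK4 in 5, and CDKN1A and CCNE1 in 7 each. The replication, mitosis, histone and G1 to S lists kept a median below that of all genes under each of the 3 other scalings.

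The call count of the ribosomal list depended on the scaling. Of 43 cytosolic ribosomal protein genes 11 fell (25.6%, median -0.915), but 5 did after loess (median -0.404). On the deposited values RPL5, RPL4, RPL30 and RPL35 headed the 11 at -2.64, -1.30, -1.74 and -1.14. RPL35 missed the call in 3 of 19 alternatives, among them loess and equal variance (adjusted p up to 0.22). RPL5 had 3 probe sets, at -1.01, -2.43 and -2.64, and ribosomal protein genes have many processed copies. Of 29 genes of oxidative phosphorylation, COX4I1 alone fell (-0.67), a share of 3.45%, near the 3.61% of all genes, and 0 did after loess. The counts of missed calls that follow are out of 19 alternatives run for each gene. Of 32 actin genes 4 fell (12.5%), MYL6, ARPC2, MSN and CNN2, of which ARPC2 was not called after loess (adjusted p = 0.093) and missed the call in 7 alternatives. Of 32 lysosome genes GRN rose and 3 were called lower (9.38%), each near the threshold: NPC2 missed it in 11 alternatives (after loess, and with any array left out), ATP6V0D1 in 9 and LAMP1 in 6. Of 16 AP-1 and immediate early genes JUNB (-2.20) and MYC (-1.76, not called after loess or in 8 other alternatives) fell (12.5%), while 5 of the 16 rose in the lysate. Of 16 p53 targets 3 fell (18.8%), CCNG1 (-2.52), TP53INP1 (-1.52) and CDKN1A (-1.23). CCNG1 passed in all 19 alternatives, TP53INP1 missed the call in 4, and CDKN1A in 7, among them loess (-0.74, adjusted p = 0.073) and 4 of the 6 left-out arrays.

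Of 35 matrix genes 0 were called in the IP and 9 rose in the lysate, and of 12 YAP-responsive genes 0 were called in the IP and 7 rose in the lysate. With 3.61% of all genes lower and 0.217% higher, few calls would be due in lists of this size, and nothing is read from their absence. COL4A1 was at 0.58 in the IP (adjusted p = 0.10) and 1.24 in the lysate, and CCN1 at 0.60 (adjusted p = 0.22) and 2.24. Of 14 cytokine and inflammatory genes TNFAIP3, an inhibitor of NF-kappaB, fell in the IP (-1.40, 7.14% of the list). Of 22 interferon genes IRF9 (-1.52) and IFI27 (-0.98) were called lower (9.09%). IFI27 missed the call in 11 of 19 alternatives, with a change of -0.34 after loess (adjusted p = 0.55). Of 23 genes of the unfolded protein response CALR, a chaperone, fell (-1.60, 4.35%). Of 16 sterol synthesis genes 0 were called on the deposited values, and after loess INSIG1, a regulator of sterol synthesis, rose by 1.41 (adjusted p = 0.021). INSIG1 read 7.71, 7.74 and 7.77 in the miR-107 IP and 6.49, 6.54 and 7.54 in the control IP (0.89, adjusted p = 0.34 on the deposited values), and 2 of the 16 fell in the lysate. Of 20 Alzheimer disease genes GRN rose and none fell, with APP at -0.50 (adjusted p = 0.33).

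On the deposited values none of 36 microRNA genes (median 0.178) or 85 small nucleolar RNA genes (median 0.0249) was called in the IP, nor any of 10 neuronal, 11 glial, 2 haematopoietic or 8 endothelial and fibroblast markers. Marker averages here cover all list members with a probe set, also those left out by the filter. These were 18 neuronal, 19 glial, 16 haematopoietic, and 15 endothelial and fibroblast genes. The neuronal markers averaged 4.07 to 4.26 over the miR-107 IP arrays and 3.94 to 4.59 over the control IP arrays, and the glial markers 4.05 to 4.14 and 3.90 to 4.33. After loess 3 small nucleolar RNA genes rose, SNORD116-15 (1.04, adjusted p = 0.037), SNORD55 (1.00, adjusted p = 0.031) and SNORD116-20 (0.97, adjusted p = 0.046). In the lysates the array averages of the lists were not tested between groups. The neuronal markers averaged 7.26 to 7.29 with miR-107 and 7.18 to 7.23 with control, the glial markers 7.12 to 7.21 with miR-107 and 6.89 to 6.95 with control, and the endothelial and fibroblast markers 8.01 to 8.14 with miR-107 and 7.70 to 7.91 with control. Among neuronal markers ENO2 read 9.999 with miR-107 and 9.004 with control. UCHL1 (12.97 and 12.95), MAP2 (8.195 and 8.137) and SNAP25 (7.703 and 7.638) were nearly level. The 16 haematopoietic markers, of which 2 were tested, averaged 5.72 to 5.75 with miR-107 and 5.72 to 5.74 with control. In the lysate 2 neuronal markers were called higher and 1 lower, 1 glial marker higher, 2 microRNA genes higher and 1 small nucleolar RNA gene lower. None of the 8 endothelial and fibroblast markers or 2 haematopoietic markers tested was called there. The part of these markers in the lysate results was not tested. The probe set for the miR-107 hairpin read 2.46, 1.65 and 2.29 in the miR-107 IP and 2.02, 1.64 and 1.96 in the control IP, overlapping groups that were left out by the filter on low values, and it does not report on the transfected mature molecule. AGO2, the Argonaute that cleaves fully paired messages, was at -0.88 (adjusted p = 0.19).

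**Figure D5:**
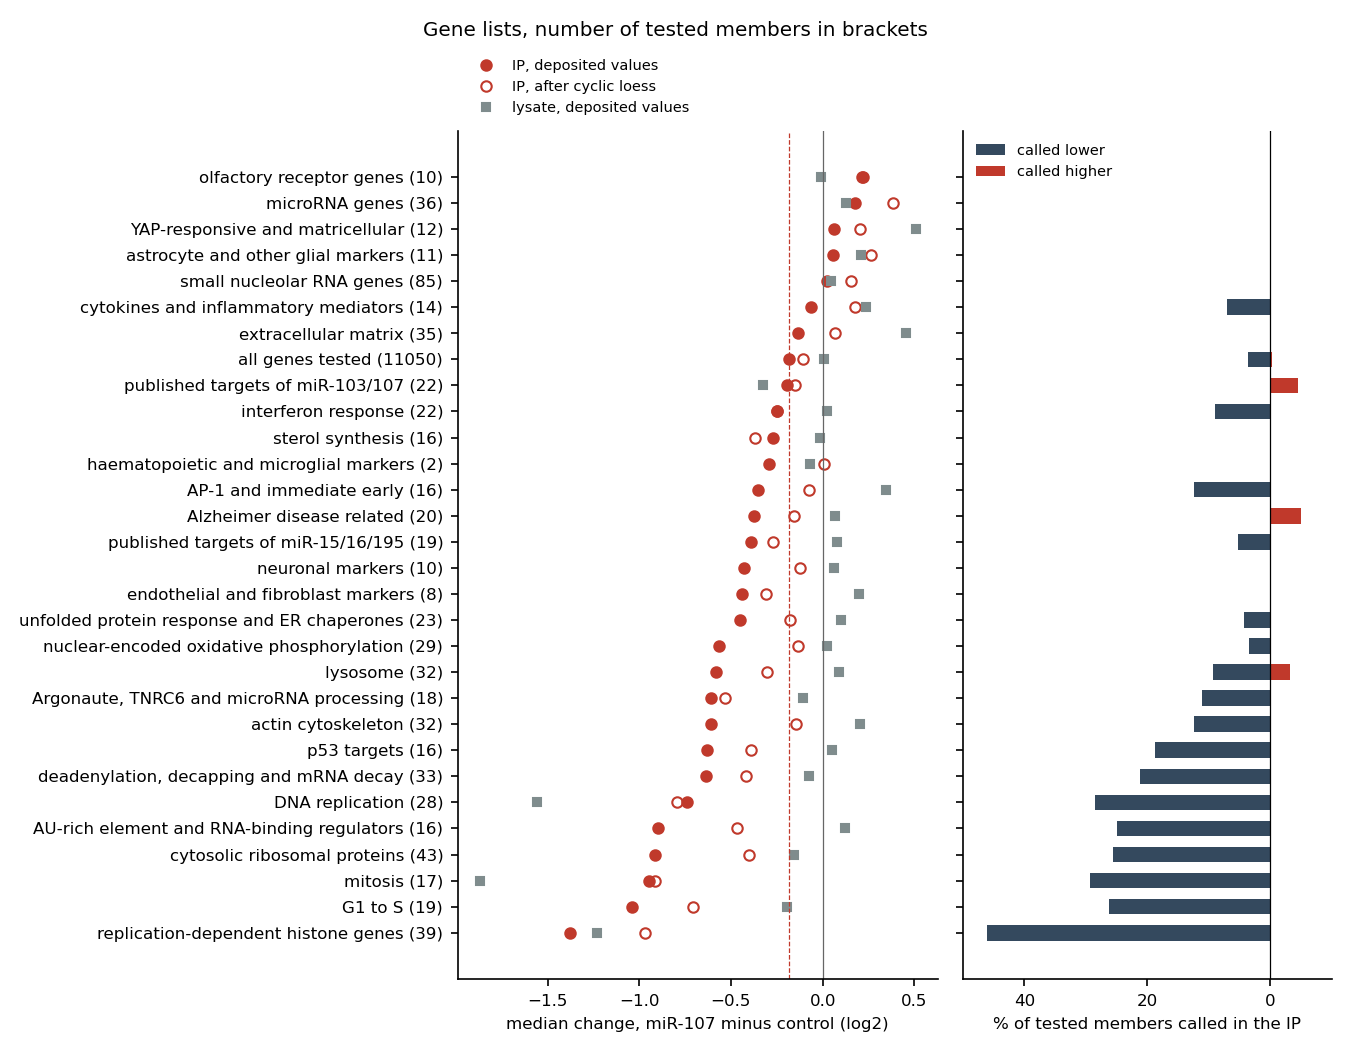
Left, median log2 change of miR-107 minus control for each gene list in the IP (red, filled for deposited values and open after cyclic loess) and in the lysate (grey squares), with all genes tested marked by the dashed line at -0.185. Right, percent of tested members called lower (left of 0) and higher (right of 0) in the IP on the deposited values; histone genes have the most falls at 46.2%, and the only rises are GRN in the lists that hold it and the rises among all genes.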

How the data were processed

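The authors deposited log2 intensities per probe set; RMA and Affymetrix Expression Console 1.1 are named in the submitters' processing notes. The log base is not stated and was read as log2 from the range of the values, so every fold rests on that reading. RMA puts arrays on a common scale, so the amount of RNA bound is not measured. Background probes were not given.

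Of 33297 probe sets, the 19460 with 1 gene symbol were used (1754 had several, 12083 none). Of these, 19429 matched the gene table by gene ID. The probe set of highest mean was kept per gene, and the lowest 40% of genes by mean over all arrays were left out (below 5.26), which left 11050. The software was limma 3.58.1 in R 4.3.3, fitting 27 arrays per fraction and 54 for the interaction. The models were tested on simulated data. Figures used Python 3.11.15 and matplotlib 3.10.9. The alternatives were other filters, scalings, probe set rules, references, variance settings, samples and left-out arrays. An exact permutation test of 3 against 3 arrays cannot go below 0.10. The replicates are labelled biological.

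Named genes were the 12 largest rises and falls among called genes whose groups did not overlap, the 5 largest interactions each way, the 3 largest each way in other contrasts, and up to 4 members per list by moderated t. The comparison, members and lists were chosen with earlier results of these data known. In the lysates same-numbered miR-107 and control arrays deviated together (correlations 0.71, 0.41 and 0.46). The highest correlation of arrays with other numbers was 0.41, and 5 of 6 arrays correlated best with their own number. By the rule used the numbers pair them there. The lysate and interaction p-values given in Results come from limma fits without that pairing.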

Additional observations from a re-analysis of the deposited data

Results flagged for a closer look

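For 10 genes the change in the IP differed most from the change in the lysate, by the interaction term in limma over 54 arrays. The IP change exceeded the lysate change by 4.72 for GRN, 3.49 for IER3IP1, 2.65 for GUCD1, 2.41 for RFC3 and 2.35 for CDH7 on the log2 scale. It was below the lysate change for MRGBP (-4.40), NPTN (-3.71), IDO1 (-3.43), KPNA2 (-3.40) and TAF12 (-3.40). RFC3 and CDH7 lay near the olfactory receptor floor in both IPs (RFC3 at 3.18 in the miR-107 IP and 2.88 in the control IP, CDH7 at 3.44 and 3.42), so a fall there could hardly be measured and their interaction reflects the fall in the lysate. TAF12 lay below that floor in all 3 miR-107 IP arrays, which bounds its size. The 10 differences passed the threshold under every alternative run for them, 21 to 23 each.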

How the results depend on the processing

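Against the control IP, 423 genes were called (24 higher, 399 lower). The count was 1330 (50, 1280) with only the arrays compared, 1217 (136, 1081) with array weights, 989 (70, 919) without the arrays that stand apart and 884 (134, 750) against the mean of 3 control groups. Rises numbered 67 with no filter, 103 after cyclic loess, 96 with equal variance and 85 with median centring, which was chosen after seeing the data. Leaving out 1 array gave 92 to 340 calls (5 to 20 higher, 87 to 329 lower).

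For the lysate, 1642 calls became 3012 with only the arrays compared, 5144 with array weights, 3006 without the arrays that stand apart, and 1210 to 1415 with 1 array left out. For the interaction, 561 became 862 with no filter, 1693 with only the arrays compared, 2449 with array weights, 1196 without the arrays that stand apart, and 343 to 638 with 1 left out. Against miR-320 and miR-15b*, 610 became 969 after loess, 32 with only the arrays compared, 1696 without the array that stands apart, and 208 to 1696 with 1 left out. Against miR-107-mut1, 558 became 2731 with array weights, 1075 without the array that stands apart, and 166 to 957 with 1 left out. Against miR-107-mut2, 4 became 21 after loess, 1 with only the arrays compared, 13 with array weights, 8 without the array that stands apart, and 1 to 5 with 1 left out. The causes were not tested.

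Same-numbered IP arrays deviated together at 0.094, 0.17 and 0.18, so by the rule used they share only a number, although 6 of 6 arrays correlated best with their own number, a hint from the data. With the replicate block the calls were 1950 (193, 1757) against control, 1788 for the interaction, 1668 against miR-320 and miR-15b*, 2012 against miR-107-mut1, 38 against miR-107-mut2 and 2308 in the lysate.

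Of the 12 named rises 3 and of the 12 named falls 10 passed the test in each of 19 alternatives, and none of the 24 changed sign. With 3 arrays a group, genes near the floor and small changes are poorly measured.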
